A study of Homo sapiens with 4 samples.

Results

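The unfolded protein and ATF4 stress genes were examined in T24, a line of human bladder carcinoma cells, as a set of 40 genes chosen by name from the 60623 genes of the deposited table. The set held 17 genes of the endoplasmic reticulum (ER) chaperone arm, 4 genes of the stress sensors and the factors they activate, and 19 genes of the ATF4 amino acid arm. All 40 were found in the table and all 40 passed the filter on low counts. RNA was measured in 2 libraries of control T24 cells and 2 libraries of T24 cells overexpressing CBX7, a chromobox protein of the Polycomb repressive complex. Both groups were grown in RPMI medium with fetal calf serum, the full-length CBX7 was carried by a lentiviral expression vector, and the labels do not say what the control cells carried. Nothing states that the libraries of a group came from separate cultures, so p-values measure the spread between these libraries, which may be technical.

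Proteins that enter the ER are folded there by chaperones. When unfolded protein accumulates, the membrane sensors ATF6, ERN1 (IRE1) and EIF2AK3 (PERK) are activated. Cleaved ATF6 and the spliced form of XBP1, made by IRE1, raise the transcription of chaperones and of the machinery that degrades misfolded protein. PERK phosphorylates the initiation factor eIF2α, which lowers translation in general and favours translation of ATF4. ATF4 is also reached from amino acid shortage through another kinase, and it drives genes for amino acid synthesis, import and one-carbon metabolism, along with CHOP (DDIT3). Activation of ATF6, PERK and ATF4 is largely a matter of protein and of translation, which RNA levels do not show.

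The libraries held between 20800910 and 25135488 expected counts. CBX7 itself had 261.4 and 203.3 counts in control cells and 42852 and 35641 counts in CBX7 cells, a log2 fold change of 7.35 ± 0.18 (SE; adjusted p = 0.000584 by the quasi-likelihood method of edgeR, adjusted by Benjamini-Hochberg). The CBX7 library numbered 1 stood apart: its log2 difference from the CBX7 library numbered 2 correlated with gene length at a Spearman coefficient of -0.70 over 11077 genes averaging 100 counts or more, and the control libraries, taken the same way, gave -0.49. The main results are therefore also given after every library was corrected for its own trend with gene length.

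The labelled cell type was checked against its markers. The keratins KRT7, KRT8, KRT18 and KRT19 summed to 3247 and 3149 TPM in control cells and 3729 and 3350 TPM in CBX7 cells. The mesenchymal markers VIM, CDH2, ZEB1 and FN1 summed to 3366 and 3338 TPM in control cells and 2499 and 2603 TPM in CBX7 cells. Both CBX7 libraries thus lay above both controls for the first list and below them for the second. All 4 genes of each list had log2 fold changes on that side of 0, and 0 of the 8 passed adjustment, beside 0.0202% of all genes. The keratin median was 0.29, and 0.16 after the length correction, and the mesenchymal median -0.26, and -0.23. By gene, both CBX7 libraries lay beyond both controls for 2 of 4 in each list, beside 15.4% higher and 14.8% lower of all genes. After the correction this held for 4 of 4, beside 18.2% and 18.4%. The outermost of the 8 were KRT19 at 1.35 ± 0.23 (adjusted p = 0.352, edgeR) and FN1 (fibronectin) at -1.03 ± 0.25 (adjusted p = 0.597, edgeR). With the replicate number as a block, KRT19 and FN1 passed adjustment and the other 6 did not, beside 2.43% of all genes. Each gene's spread rests on the other genes in that fit. With the block and the length correction together, 1 keratin and 2 mesenchymal genes passed, beside 2.77%. Without CBX7 library 2, the keratin median was 0.52 and the mesenchymal median -0.55. Without CBX7 library 1 they were 0.047 and -0.21, and 1 gene of each list changed side. The part of these markers in the results was not tested. The uroplakins UPK1A, UPK1B, UPK2 and UPK3A, which define differentiated urothelium, and the basal keratins KRT5, KRT14 and KRT6A had at most 3 counts in every library, as did the luminal KRT20. The fourth basal marker, CD44, was abundant, at 548 and 605 TPM in control cells and 375 and 606 TPM in CBX7 cells. Of the other luminal markers, PPARG averaged 23.9 TPM, FOXA1 7.79 TPM and GATA3 0.397 TPM. PPARG and FOXA1 had log2 fold changes of 0.049 and 0.22. GATA3 had 3 and 4 counts in control cells and 14 and 22 in CBX7 cells, and its fitted log2 fold change of 2.28 (adjusted p = 0.602, and 0.0369 with the replicate block, edgeR) rests on these few reads. Of the blood and endothelial markers, PTPRC, CD3E and VWF had at most 3 counts, and the list of 6 summed to between 1.12 and 1.96 TPM.

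The promoters of the 40 genes were searched for the elements known for each arm. The ER stress response element (ERSE), to which ATF6 binds together with NF-Y, pairs an NF-Y box with an ATF6 half-site across a fixed spacer, and its compact form (ERSE-II) holds the same parts closer together. An exact match to every fixed base was required. The C/EBP-ATF response element (CARE), to which ATF4 binds with a C/EBP partner, is spelled TGATGNAA. Each was searched on both strands in RefSeq promoters of GRCh38.p14, from 250 bases before to 50 bases after the start, and 37 of the 40 genes matched the table by symbol. PDIA3, PSPH and SHMT2 did not match. ERSE was found in 0.0769% of 35116 promoters and in 0.0916% of the 27305 genes they belong to, in 6 of 16 chaperone arm genes, in XBP1 and in 0 of 17 ATF4 arm genes. The matches follow on the strand of the gene, 5′ to 3′, with 20 bases on either side and the match in capitals, because ERSE is the element by which the chaperone arm is known.
HSPA5, chr9:125241371-125241429, 47 bases before the start: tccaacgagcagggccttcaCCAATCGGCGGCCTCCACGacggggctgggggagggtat
HSP90B1, chr12:103930196-103930254, 175 bases before the start: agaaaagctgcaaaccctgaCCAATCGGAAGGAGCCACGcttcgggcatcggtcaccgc
HSP90B1, chr12:103930301-103930359, 70 bases before the start: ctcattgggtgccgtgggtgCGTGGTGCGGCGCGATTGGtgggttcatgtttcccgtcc
CALR, chr19:12938364-12938422, 206 bases before the start: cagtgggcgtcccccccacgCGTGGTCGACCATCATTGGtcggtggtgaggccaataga
CANX, chr5:179698758-179698816, 132 bases before the start: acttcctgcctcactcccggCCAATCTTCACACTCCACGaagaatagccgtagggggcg
PDIA6, chr2:10812833-10812891, 67 bases before the start: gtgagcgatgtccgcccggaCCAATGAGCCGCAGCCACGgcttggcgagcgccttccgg
CRELD2, chr22:49918534-49918592, 61 bases before the start: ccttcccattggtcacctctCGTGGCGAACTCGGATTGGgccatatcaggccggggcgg
XBP1, chr22:28800583-28800641, 33 bases before the start: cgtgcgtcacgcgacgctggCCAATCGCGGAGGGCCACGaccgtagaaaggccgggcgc
In CALR, CRELD2 and the second HSP90B1 window the element lay on the opposite strand and reads as the reverse complement.

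ERSE-II was found in 0.0541% of promoters and 0.0696% of genes. It occurred in SDF2L1, in HERPUD1 and at a pair of places in HYOU1, and in no ATF4 arm gene. With ERSE-II included, 9 of 16 chaperone arm genes carried one of the elements in this window, and their windows follow.
SDF2L1, chr22:21642094-21642144, 177 bases before the start: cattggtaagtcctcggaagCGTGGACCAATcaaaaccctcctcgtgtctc
HERPUD1, chr16:56932005-56932055, 106 bases before the start: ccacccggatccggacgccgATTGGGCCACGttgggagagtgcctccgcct
HYOU1, chr11:119057254-119057304, 68 bases before the start: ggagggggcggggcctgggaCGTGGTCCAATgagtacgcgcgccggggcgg
HYOU1, chr11:119057360-119057410, 174 bases before the start: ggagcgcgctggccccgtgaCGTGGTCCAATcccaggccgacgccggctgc
In the HYOU1 window farther from the start, the match overlaps the UPRE spelled TGACGTGG, which the XBP1 protein binds and which was found in 0.729% of promoters and 0.927% of genes.

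CARE, a shorter word, was found in 3.62% of promoters and 4.46% of genes, in 6 of 17 ATF4 arm genes and in 1 of 16 chaperone arm genes. The ATF4 arm genes were ATF3, CHAC1, ASNS, SLC1A5, SLC3A2 and SLC7A1, and in SLC3A2 and SLC7A1 the match lay past the start of the transcript, so those windows are not shown. The chaperone arm gene was HERPUD1, which thus held matches to both ERSE-II and CARE. The upstream matches are given in the same form.
ASNS, chr7:97872449-97872496, 60 bases before the start: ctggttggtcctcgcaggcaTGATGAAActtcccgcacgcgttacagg
ATF3, chr1:212565196-212565243, 183 bases before the start: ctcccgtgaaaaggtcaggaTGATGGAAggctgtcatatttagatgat
CHAC1, chr15:40953242-40953289, 201 bases before the start: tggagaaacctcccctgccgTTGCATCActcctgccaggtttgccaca
SLC1A5, chr19:46784884-46784931, 89 bases before the start: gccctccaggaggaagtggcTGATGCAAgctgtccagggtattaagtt
HERPUD1, chr16:56931946-56931993, 168 bases before the start: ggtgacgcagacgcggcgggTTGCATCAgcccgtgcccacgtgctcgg
A match is a run of letters and not a measured site of binding, and a gene without one may carry an element outside the window.

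XBP1 has a further sequence that bears on how its values are read. IRE1 removes 26 bases from its messenger RNA, which shifts the reading frame and yields the active factor. In GENCODE 29 on GRCh38 the segment lies in an exon of XBP1 on the minus strand of chromosome 22, at chr22:28796124-28796149, and is absent from an annotated transcript. A second transcript lacks 26 bases placed 2 bases away, which leaves the same joined sequence, so 2 annotated transcripts have the spliced form here. The segment is shown in capitals with 20 bases on either side.
XBP1: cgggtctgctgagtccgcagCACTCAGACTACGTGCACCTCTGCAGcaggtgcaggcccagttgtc
The deposited counts are per gene, so the spliced and unspliced forms were not separated here, and XBP1 below means their sum.

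The chaperone arm was abundant in both groups. Levels are given in TPM, which is scaled by gene length and can be compared between genes. The median of the 17 genes' mean levels was 90.1 TPM beside 11.9 TPM over all genes tested, and 8 of the 17 exceeded 100 TPM. CALR (calreticulin), a chaperone that binds glycoproteins through their sugars, was the most abundant of all 40 genes, at 605 and 606 TPM in control libraries 1 and 2 and 606 and 601 TPM in CBX7 libraries 1 and 2. HSP90B1 (GRP94), the ER member of the HSP90 family, was at 555 and 561 TPM in control cells and 503 and 526 TPM in CBX7 cells. HSPA5 (BiP), the central ER chaperone, was at 334 and 334 TPM in control cells and 315 and 356 TPM in CBX7 cells. The values of CALR and HSPA5 in control cells lay inside or next to those in CBX7 cells, and HSP90B1 was lower in both CBX7 libraries on this scale. CANX (calnexin), the membrane partner of calreticulin, was at 249 and 286 TPM in control cells and 176 and 285 TPM in CBX7 cells, so CBX7 library 1 was the lowest and the other 3 lay together.

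The disulfide isomerases, which form and rearrange disulfide bonds, followed. PDIA3 was at 272 and 262 TPM in control cells and 272 and 269.6 TPM in CBX7 cells, PDIA6 averaged 215 TPM over the 4 libraries and PDIA4 ranged from 132 to 159 TPM. MANF, a small secreted stress factor, was at 284 and 295 TPM in control cells and 306 and 271 TPM in CBX7 cells, while CRELD2, another secreted protein of this response, averaged 43.4 TPM. HYOU1 (GRP170), which exchanges the nucleotide of BiP, averaged 90.1 TPM. Among the co-chaperones, DNAJB11 and SDF2L1, which act together with BiP, averaged 80.4 and 80.2 TPM. DNAJC3 (P58IPK) averaged 14.2 TPM. DNAJB9 (ERdj4) was the least abundant gene of the arm, at 4.22 and 4.31 TPM in control cells and 3.26 and 4.84 TPM in CBX7 cells. The genes of ER-associated degradation were moderate: HERPUD1 averaged 33.2 TPM, SEL1L 17.6 TPM and its ubiquitin ligase partner SYVN1 (HRD1) 16.5 TPM. Across the arm the levels thus spanned from 4.16 TPM to 604 TPM.

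**Figure D1:**
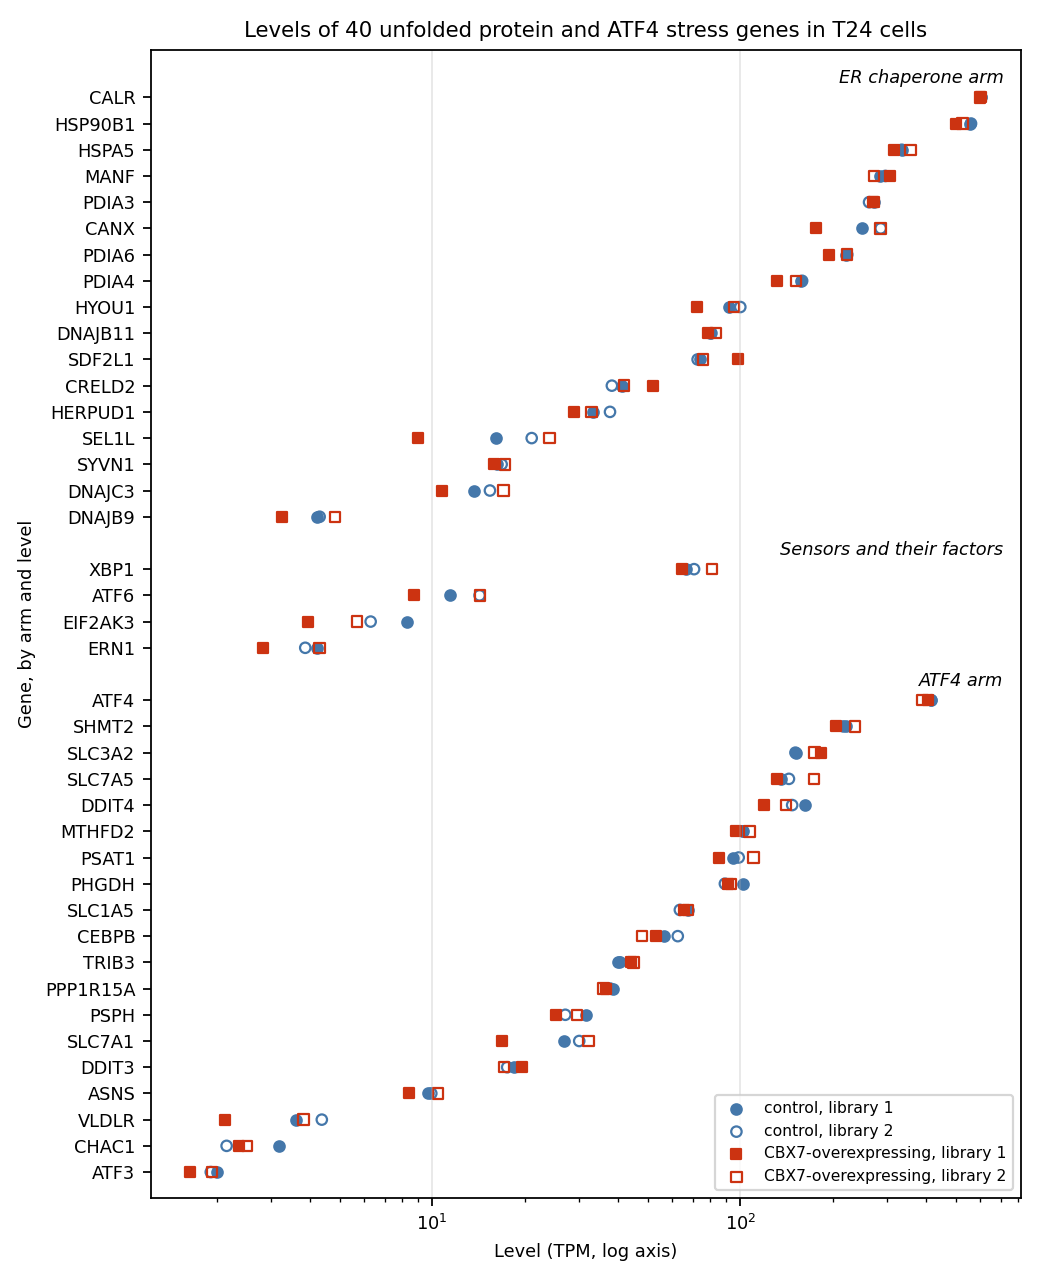
Levels of the 40 genes in TPM on a log axis, ordered by arm and by mean level. Circles are control libraries and squares CBX7-overexpressing libraries, filled for library 1 and open for library 2; the chaperone arm reaches 604 TPM (CALR) and the ATF4 arm 407 TPM (ATF4), and the 4 symbols of a gene mostly lie together.

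The sensors had a far lower median level than the chaperone arm. Single genes overlapped: DNAJB9 of that arm, at a mean of 4.16 TPM, lay below ATF6, EIF2AK3 and XBP1. ATF6, a transcription factor held in the ER membrane until it is cleaved, was at 11.4 and 14.2 TPM in control cells and 8.72 and 14.3 TPM in CBX7 cells. ERN1, the kinase and RNase that splices XBP1, was at 4.21 and 3.87 TPM in control cells and 2.83 and 4.31 TPM in CBX7 cells. EIF2AK3, the kinase that acts on eIF2α, was at 8.31 and 6.31 TPM in control cells and 3.95 and 5.69 TPM in CBX7 cells, and both CBX7 values were below both control values on this scale. XBP1, the factor, was the exception among the 4, at 66.7 and 70.8 TPM in control cells and 64.7 and 81.1 TPM in CBX7 cells. The median over the 4 genes was 9.11 TPM and none exceeded 100 TPM. For ATF6 and ERN1 the lowest library was CBX7 library 1, and CBX7 library 2 was the highest.

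The ATF4 arm ranged from one of the most abundant transcripts of the set to the least. ATF4 was at 416 and 417 TPM in control cells and 407 and 389.9 TPM in CBX7 cells, a mean above that of HSPA5, and 97.9% of tested genes had a lower mean TPM or the same. DDIT3 (CHOP), linked to cell death under lasting stress, was at 18.4 and 17.5 TPM in control cells and 19.6 and 17.1 TPM in CBX7 cells. ATF3, an early stress factor, was at 2.00 and 1.91 TPM in control cells and 1.64 and 1.93 TPM in CBX7 cells, and CHAC1, an enzyme that degrades glutathione, was at 3.17 and 2.15 TPM in control cells and 2.36 and 2.50 TPM in CBX7 cells. These last 2 rested on few reads: ATF3 had 63 and 35 counts in control cells and 47 and 50 in CBX7 cells, and CHAC1 had 70 and 37 counts in control cells and 61 and 52 in CBX7 cells. CEBPB, a C/EBP factor that pairs with ATF4, averaged 55.1 TPM. TRIB3, a pseudokinase, averaged 42.5 TPM, and PPP1R15A (GADD34), which directs the dephosphorylation of eIF2α, averaged 37.3 TPM. DDIT4 (REDD1), an inhibitor of mTORC1, was at 162 and 147 TPM in control cells and 119 and 141 TPM in CBX7 cells.

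The metabolic genes of the ATF4 arm were mostly abundant. The serine pathway enzymes PHGDH, PSAT1 and PSPH averaged 93.9, 97.2 and 28.3 TPM in the order of the steps they catalyse. SHMT2 and MTHFD2, mitochondrial enzymes of one-carbon metabolism, averaged 219 and 102 TPM. ASNS, which makes asparagine, was the low member, at 9.72 and 9.93 TPM in control cells and 8.42 and 10.4 TPM in CBX7 cells. SLC7A5 (LAT1), the importer of large neutral amino acids, was at 135 and 144 TPM in control cells and 131 and 174 TPM in CBX7 cells. SLC3A2 (4F2hc), the chain that carries SLC7A5 to the membrane, was at 151 and 151 TPM in control cells and 183 and 174 TPM in CBX7 cells, with both CBX7 libraries above both control libraries. SLC1A5 (ASCT2), a glutamine carrier, averaged 66.1 TPM and SLC7A1 (CAT1), which imports arginine and lysine, 26.4 TPM. VLDLR, a lipoprotein receptor, averaged 3.49 TPM. The median of the arm's 19 means was 55.1 TPM, and 6 of the 19 exceeded 100 TPM.

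The comparison of CBX7-overexpressing with control cells asked whether either arm moved with CBX7. Of the 40 genes, 0 had an adjusted p under 0.05 and 0 an unadjusted p under 0.05 in the quasi-likelihood fit of edgeR. The background was 0.0202% of 14862 genes at the adjusted threshold (3 genes) and 4.74% at the unadjusted one. DESeq2's Wald test also gave 0 of the 40 at either threshold. The smallest unadjusted p was 0.0749, for SLC3A2, with an adjusted p of 0.951 (edgeR, Benjamini-Hochberg). The log2 fold changes ran from -0.26 for SEL1L to 0.41 for SDF2L1, with a median of 0.044 beside 0.0017 over all genes tested. A total of 27 were above 0 and 13 below, beside 50.3% of all genes above 0. After the length correction 19 were above 0 and 21 below, beside 48.2% above, and again 0 passed adjustment, beside 0.0135%. The libraries share replicate numbers across the groups. With that number as a block, 3 of the 40 (SDF2L1, CRELD2 and SLC3A2) had an unadjusted p under 0.05, beside 10.2% of all genes, and 0 an adjusted one, beside 2.43%. With the block and the length correction together, 4 (CRELD2, DDIT4, SLC7A5 and SLC3A2) passed unadjusted, beside 13.0%, and 0 adjusted, beside 2.77%.

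The intervals set limits on what could have been missed, given a spread between these libraries that may be technical. The 95% interval of the fold change lay within 2-fold in both directions for 39 of the 40 genes, beside 75.6% of all genes tested. It lay within 1.5-fold for 27, beside 40.8%. The members were also more abundant, with medians of 90.1 TPM (chaperone arm) and 55.1 TPM (ATF4 arm) beside 11.9 TPM. The part of level in these shares was not tested. The exception to the first limit was SDF2L1, whose interval on the log2 scale was -0.22 to 1.04. For BiP (HSPA5) the interval was -0.21 to 0.43, for ATF4 -0.35 to 0.48 and for XBP1 -0.15 to 0.48. DDIT3 had -0.38 to 0.72, and ATF3, the lowest, -0.86 to 0.76. After the length correction all 40 intervals lay within 2-fold, beside 79.0% of all genes, and 38 lay within 1.5-fold, beside 59.3%.

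**Figure D2:**
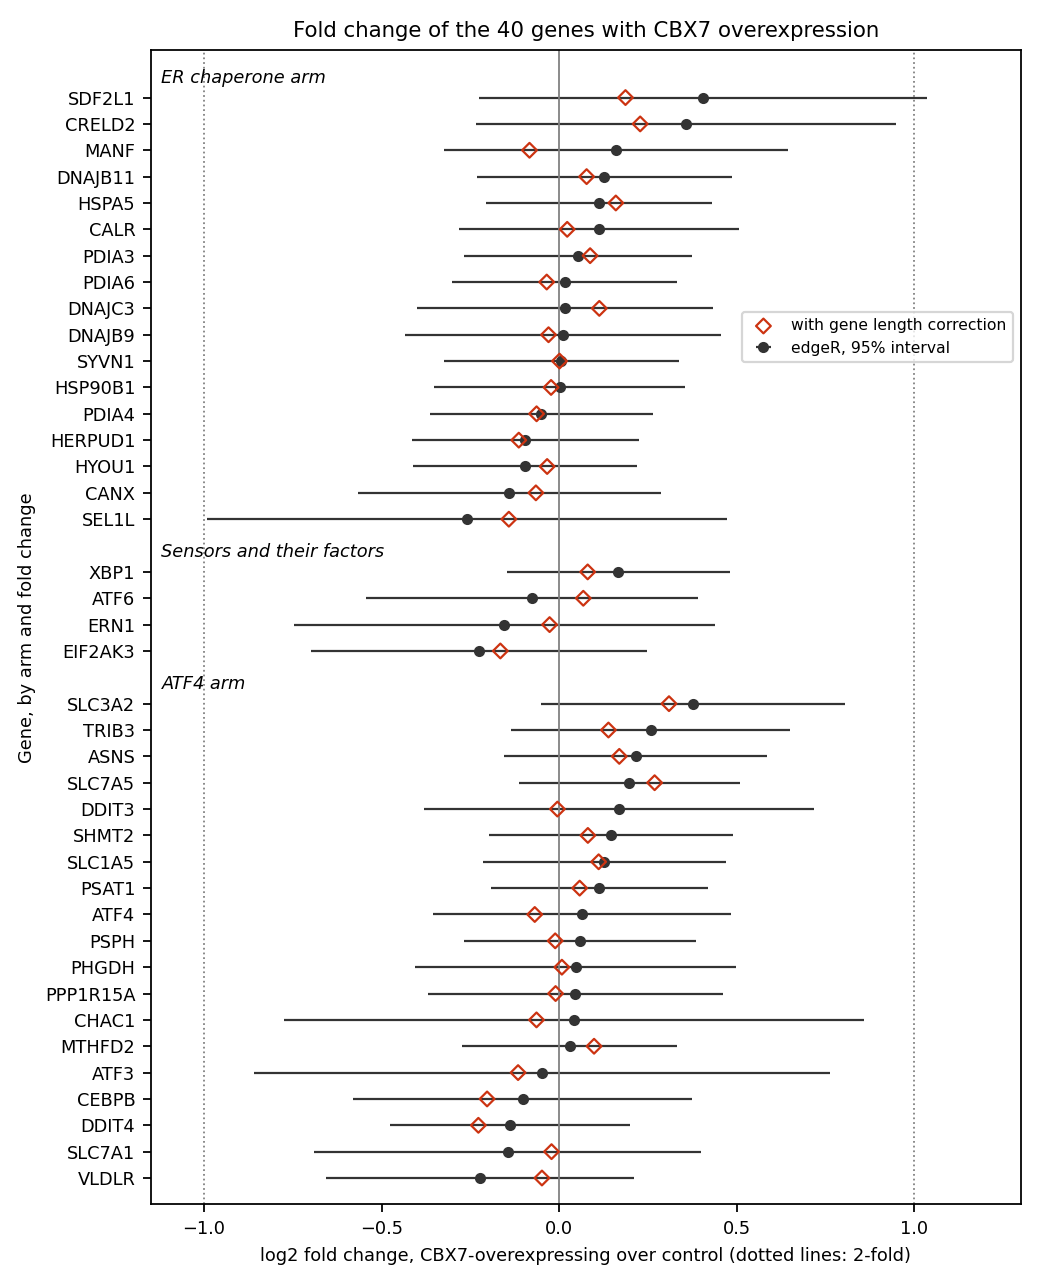
The log2 fold change of each gene, CBX7-overexpressing over control, with its 95% interval from edgeR (black), and the value after the gene length correction (red diamonds). All 40 intervals cross 0, and only that of SDF2L1 passes the dotted 2-fold line.

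This count of 0 depended on 1 library. When CBX7 library 2 was left out, so that CBX7 library 1 stood alone against both controls and was assumed to vary as they did, 16 of the 40 genes had an adjusted p under 0.05, 9 higher and 7 lower, beside 35.5% of all genes tested. They included SDF2L1, CRELD2, MANF, TRIB3 and SLC3A2 among the higher, and SEL1L, CANX, ERN1, EIF2AK3 and SLC7A1 among the lower. With the length correction as well, an alternative chosen after seeing the data, 9 were called, 6 higher and 3 lower, beside 20.1%. The higher genes were HSPA5, SDF2L1, PDIA3, CRELD2, SLC7A5 and SLC3A2, and the lower CANX, SEL1L and DDIT4. When CBX7 library 1 was left out instead, 0 of the 40 passed, beside 2.59% of all genes. With the length correction this became 1, SLC7A5, beside 1.97%.

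In the chaperone arm, 0 of the 17 genes passed the adjusted or the unadjusted threshold, beside 0.0202% and 4.74% of all genes. HSPA5 was at 973 and 931 CPM in control cells and 1079 and 978 CPM in CBX7 cells, where CPM is the count scaled to library size after TMM normalization. Both CBX7 libraries were above both controls, by a margin smaller than that between the CBX7 libraries, and the log2 fold change was 0.11 ± 0.13 (SE). After the length correction it was 0.16 and the groups overlapped. HSP90B1 had a log2 fold change of 0.0016 ± 0.14, PDIA6 0.016 ± 0.13 and CALR 0.11 ± 0.16. Beside HSPA5, no gene of this arm had both CBX7 libraries above both controls, while HYOU1 and HERPUD1 had both below, each with a log2 fold change of -0.10. That is 1 of 17 higher and 2 of 17 lower, beside 15.4% and 14.8% of all genes. After the length correction it was 3 higher (DNAJC3, DNAJB11 and SDF2L1) and 5 lower (PDIA4, PDIA6, HYOU1, MANF and HERPUD1), beside 18.2% and 18.4%.

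The largest values of the arm came from CBX7 library 1. SDF2L1 was at 32.8 and 31.2 CPM in control cells and 53.0 and 31.9 CPM in CBX7 cells, a mean of 32.0 ± 1.11 against 42.4 ± 14.9 CPM (SD, n = 2), so CBX7 library 1 was high and the other 3 lay together. Its log2 fold change was 0.41 ± 0.25, and 0.19 after the length correction. CRELD2 showed the same picture, at 38.2 and 34.2 CPM in control cells and 56.8 and 36.0 CPM in CBX7 cells, with a log2 fold change of 0.36 ± 0.24 and 0.23 after the correction. SEL1L was the mirror image, at 94.1 and 113 CPM in control cells and 61.7 and 112 CPM in CBX7 cells: CBX7 library 1 was low and CBX7 library 2 was level with control library 2. Its log2 fold change was -0.26 ± 0.29, and -0.14 after the correction. In the fits that left out each library in turn, SDF2L1 ran from -0.0034 to 0.72 and CRELD2 from -0.0057 to 0.65 on the log2 scale, with and without the correction, each lowest when CBX7 library 1 was left out.

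Of the sensors, XBP1 was at 83.5 and 85.7 CPM in control cells and 96.8 and 93.2 CPM in CBX7 cells, with both CBX7 libraries above both controls and a log2 fold change of 0.17 ± 0.13. After the length correction it was 0.080 and the groups overlapped. ATF6 had -0.077 ± 0.19 and turned to 0.068 with the correction. ERN1 had -0.15 ± 0.24 and EIF2AK3 -0.23 ± 0.19. These 3 genes are among the long ones of the set, at 7470, 7895 and 4536 bases in the deposited table, and each was lowest in CBX7 library 1. The median of the 4 sensors was -0.12, and 0.020 after the correction.

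In the ATF4 arm, the factors showed no rise that passed the test. ATF4 was at 387 and 372 CPM in control cells and 450.2 and 343 CPM in CBX7 cells: the highest and the lowest library were both CBX7 libraries. Its log2 fold change was 0.064 ± 0.17, and -0.069 after the length correction. DDIT3 had 0.17 ± 0.22, which became -0.0051, and CEBPB -0.10 ± 0.19, which became -0.20. ATF3 had -0.048 ± 0.33. After the correction all 4 factors were below 0, none past an unadjusted p of 0.05, beside 6.79% of all genes. Among the regulators, TRIB3 was at 56.8 and 55.5 CPM in control cells and 74.5 and 59.8 CPM in CBX7 cells, with both CBX7 libraries above both controls and a log2 fold change of 0.26 ± 0.16 (0.14 corrected). DDIT4 lay the other way, at 184 and 163 CPM in control cells and 163 and 153 CPM in CBX7 cells, with a log2 fold change of -0.14 ± 0.14, and -0.23 after the correction. PPP1R15A had 0.046 and CHAC1 0.042, the latter with an SE of 0.33.

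The 6 enzymes of amino acid and one-carbon metabolism all had log2 fold changes above 0, by small amounts, from 0.030 for MTHFD2 to 0.22 for ASNS. With the length correction 5 of the 6 did, and PSPH was at -0.011. ASNS was at 12.5 and 11.3 CPM in control cells and 13.9 and 13.7 CPM in CBX7 cells, PSAT1 at 146 and 145 CPM in control cells and 155 and 159.8 CPM in CBX7 cells and MTHFD2 at 166 and 167 CPM in control cells and 169 and 170.0 CPM in CBX7 cells. In each of the 3 both CBX7 libraries exceeded both controls, though for MTHFD2 by a few percent at most, beside 15.4% of all genes. Once length was corrected this held for ASNS, was lost for PSAT1 and MTHFD2, whose groups then overlapped, and was gained for SHMT2, beside 18.2%. PHGDH, the first enzyme of serine synthesis, had 0.046 ± 0.18, and SHMT2 0.15 ± 0.14. None of the 6 reached an unadjusted p of 0.05 before or after the correction, beside 4.74% and 6.79% of all genes.

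SLC3A2 and SLC7A5, the chains of one amino acid transporter, had the smallest p-values of the set once gene length was corrected. SLC3A2 was at 200.4 and 192 CPM in control cells and 290.4 and 219 CPM in CBX7 cells, a mean of 196 ± 5.85 against 255 ± 50.6 CPM (SD, n = 2). SLC7A5 was at 443 and 456 CPM in control cells and 493 and 537 CPM in CBX7 cells, a mean of 449 ± 9.31 against 515 ± 30.8 CPM. For both genes both CBX7 libraries lay above both controls. The log2 fold change of SLC3A2 was 0.38 ± 0.17 and that of SLC7A5 0.20 ± 0.13, neither past an unadjusted p of 0.05. Corrected, SLC3A2 had 0.31 (95% interval 0.063 to 0.56) and SLC7A5 0.27 (0.11 to 0.43). These 2 were the only members with an unadjusted p under 0.05 there, 2 of 40 beside 6.79% of all genes, and neither passed adjustment (adjusted p = 0.551 and 0.358, edgeR). In every fit that left out 1 library, with or without the correction, both stayed above 0, from 0.16 to 0.56 for SLC3A2 and from 0.13 to 0.30 for SLC7A5. Of the other importers, SLC1A5 had 0.13 ± 0.14, and 0.11 corrected, where both CBX7 libraries lay above both controls. SLC7A1 had -0.15 ± 0.22, and -0.022 corrected. VLDLR had -0.22 ± 0.17, and -0.049 corrected.

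**Figure D3:**
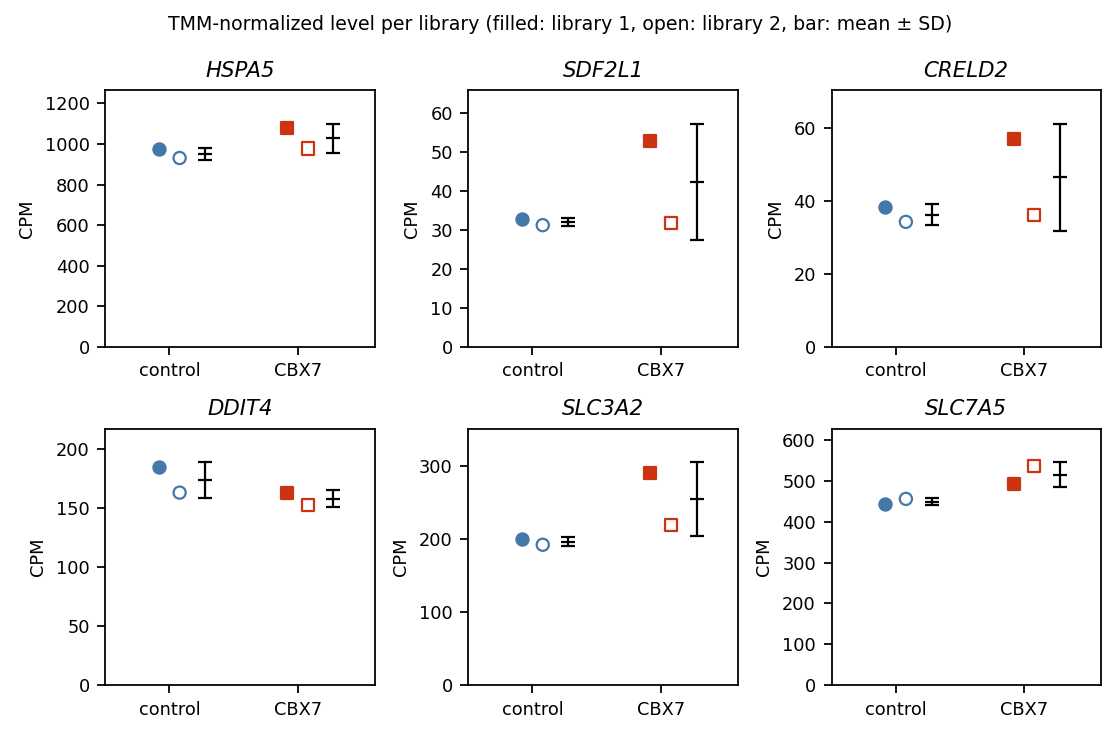
TMM-normalized CPM per library for 6 of the genes, on axes that start at 0. Circles are control and squares CBX7 libraries (filled, library 1; open, library 2), and the bar beside each group is its mean ± SD (n = 2); SDF2L1 and CRELD2 are raised in CBX7 library 1 alone, while both CBX7 libraries exceed both controls for SLC3A2 and SLC7A5.

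Set side by side, both arms had medians close to 0. The median log2 fold change was 0.015 over the chaperone arm, with 12 genes above 0 and 5 below, and 0.059 over the ATF4 arm, with 14 above and 5 below. After the length correction the medians were -0.023 (8 above, 9 below) and -0.0051 (9 above, 10 below), beside -0.0071 over all genes. The ATF4 arm held 6 genes with both CBX7 libraries above both controls and 2 below (DDIT4 and VLDLR), beside the 15.4% and 14.8% of all genes, and after the correction 6 above and 3 below, beside 18.2% and 18.4%. The summed level of the chaperone arm was 3050 and 3112 TPM in control cells and 2873 and 3074 TPM in CBX7 cells. That of the ATF4 arm was 1682 and 1663 TPM in control cells and 1593 and 1719 TPM in CBX7 cells. In both arms CBX7 library 1 had the lowest sum. CBX7 library 2 lay inside the control range for the chaperones and above it for the ATF4 arm. The order differed for the mean log2 CPM over an arm's genes, without the length correction, where CBX7 library 1 was highest in both. Its chaperone arm mean was 7.24, beside 7.15 for CBX7 library 2 and 7.17 and 7.16 for the controls. Its ATF4 arm mean was 5.97, beside 5.86 for CBX7 library 2 and 5.92 and 5.80 for the controls. No test of the difference between the arms was run.

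The spread among the 40 genes followed gene length. The 13 genes under 2000 bases had a median log2 fold change of 0.11, with 10 above 0. The 16 genes of 2000 to 4000 bases had 0.049, with 14 above 0, and the 11 genes over 4000 bases had -0.14, with 3 above 0. Over the 40 genes the Spearman correlation of the fold change with length was -0.61, given as a description since genes share libraries. It was -0.73 over the 17 chaperone arm genes and -0.18 over the 19 ATF4 arm genes. The relation was present in the libraries numbered 1, where it was -0.66, and not in those numbered 2, where it was 0.053. The 11077 genes averaging 100 counts or more showed the same, at -0.62 and 0.042. After the correction it was -0.013 over the 40 genes, -0.22 over the chaperone arm and 0.39 over the ATF4 arm, so the arms then had opposite signs.

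**Figure D4:**
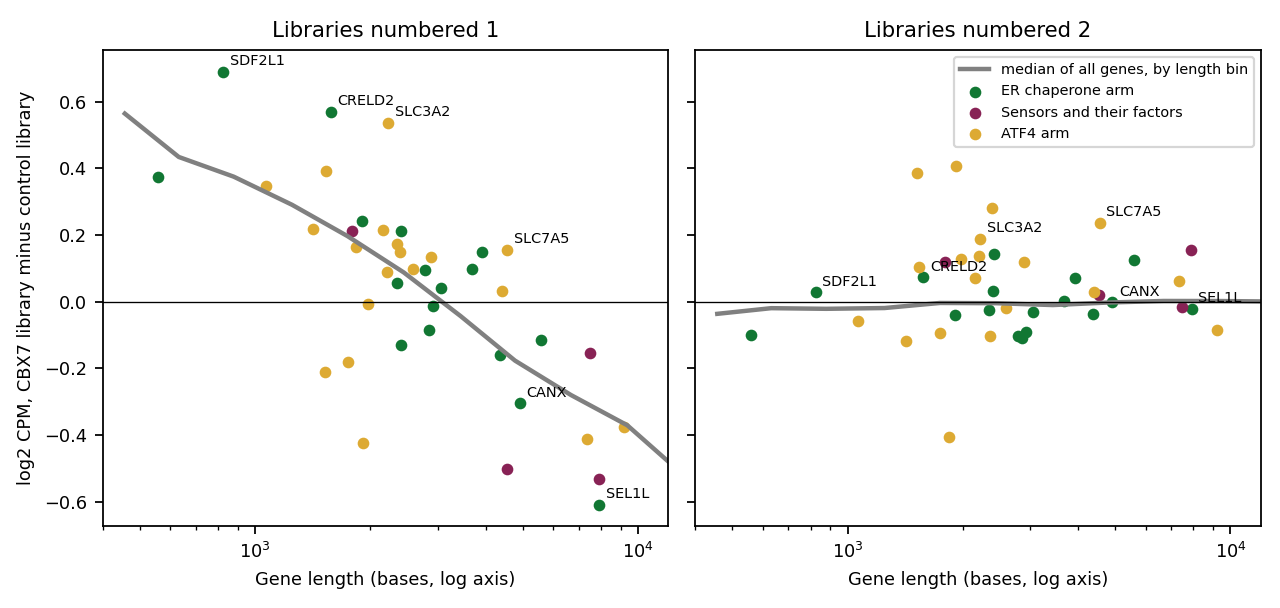
The log2 CPM difference between the CBX7 and the control library of the same number against gene length in bases on a log axis, for the libraries numbered 1 (left) and 2 (right). Points are the 40 genes by arm and the grey line is the median of all genes in bins of length; the members fall with length along the grey line on the left (Spearman -0.66) and not on the right (0.053).

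SDF2L1 (825 bases) and SEL1L (7919 bases), the extremes of the fold change, were a short and a long gene of the set, whose lengths ran from 558 bases (MANF) to 9213 bases (VLDLR). In the libraries numbered 1 SDF2L1 differed by 0.69 and SEL1L by -0.61 on the log2 CPM scale, and in those numbered 2 by 0.028 and -0.022. SLC7A5, at 4556 bases, lay against the trend: it differed by 0.16 and 0.24, above 0 in both. SLC3A2, at 2222 bases, differed by 0.54 and 0.19. What produced the trend in the libraries numbered 1 was not tested.

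The fold changes were also read by promoter element, with no test between the groups. The 10 genes with ERSE or ERSE-II ran from -0.14 (CANX) to 0.41 (SDF2L1), with 7 above 0, a median of 0.064, and 5 above 0 after the length correction. Without the sensor XBP1, the 9 chaperone arm genes among them had a median of 0.016, with 6 above 0. The 7 matched chaperone arm genes without either had a median of 0.011, with 5 above 0. Of the 6 ATF4 arm genes with CARE, 4 were above 0, with a median of 0.085, beside 8 of the 11 without, with a median of 0.046. In level, the 9 chaperone arm genes with ERSE or ERSE-II ranged from 33.2 to 604 TPM, with a median of 215 TPM, and the 7 chaperone arm genes without ranged from 4.16 to 289 TPM, with a median of 17.6 TPM.

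Further genes of the same pathways were read from the same fit. Of 35 other genes of the ER chaperone and degradation pathway, 34 were tested, with a median log2 fold change of 0.012. Of these, 0 passed an adjusted or an unadjusted p of 0.05, beside 0.0202% and 4.74% of all genes. The 3 with the smallest p were ERO1A, the oxidase that recharges disulfide isomerases, at -0.22 ± 0.14, WFS1 at 0.20 ± 0.13 and SEC61G, a subunit of the ER translocon, at 0.29 ± 0.20 (log2, SE). Of 40 other genes of the ATF4 pathway, 37 were tested and 0 passed adjustment, beside 0.0202% of all genes, with a median of -0.0062. At an unadjusted p under 0.05, 2 were higher and 1 lower, beside 3.42% and 1.32% of all genes. These counts depended on the same library as that of the 40. Without CBX7 library 2, 8 genes of the chaperone list were higher and 9 lower at the adjusted threshold of edgeR, and 3 and 7 with the length correction. Of the ATF4 list 5 were higher and 7 lower, and 4 and 2 with the correction, beside the 35.5% and 20.1% of all genes. DNAJC10, an ER reductase, was called lower without the correction (-0.33 on the log2 scale) and higher with it (0.42). Without CBX7 library 1, 0 of the chaperone list passed, and 2 of the ATF4 list, PYCR1 and SLC7A11, the cystine importer, were higher, beside 2.59% of all genes. With the length correction PYCR1 alone of the ATF4 list passed, beside 1.97%, and again 0 of the chaperone list. SLC7A11 was at 0.39 without CBX7 library 1 before the correction and, called lower, at -0.39 without CBX7 library 2.

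PYCR1, which makes proline, had 2410 and 1955 counts in control cells and 4062 and 2927 in CBX7 cells, so both CBX7 libraries exceeded both controls. Its log2 fold change was 0.62 ± 0.17 (adjusted p = 0.713, edgeR), and 0.49 (adjusted p = 0.156, edgeR) after the length correction. With the replicate number as a block, its adjusted p from edgeR was 0.0116, in a fit where each gene's spread rests on the other genes. There 1 gene of the ATF4 list was higher and 0 lower at the adjusted threshold, beside 2.43% of all genes. With the block and the length correction together, 1 was higher and 1 lower, beside 2.77%. GDF15, a secreted stress hormone, had 99 and 73 counts in control cells and 148 and 114 in CBX7 cells and a log2 fold change of 0.56 ± 0.22 (adjusted p = 0.951, edgeR). KLHL24, an adaptor of a ubiquitin ligase, had 171 and 190 counts in control cells and 103 and 137 in CBX7 cells and -0.64 ± 0.25 (adjusted p = 0.951, edgeR).

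The cytosolic and mitochondrial heat shock genes, which respond to unfolded protein outside the ER, were read for contrast. All 13 had log2 fold changes above 0 and 0 of them passed an unadjusted p of 0.05, beside 4.74% of all genes. Their median was 0.11, and both CBX7 libraries exceeded both controls for 7 of the 13, beside 15.4% of all genes. After the length correction 12 were above 0, with a median of 0.076. When CBX7 library 1 was left out, 8 of the 13 were above 0, with a median of 0.037, and 1, HSPA4L, an HSP110 chaperone, passed adjustment at 0.40 (adjusted p = 0.0182, edgeR), beside 2.59% of all genes. That call was lost with the length correction, where 0 of the 13 passed, beside 1.97%. When CBX7 library 2 was left out, 6 were higher and 1 lower at the adjusted threshold, beside 35.5% of all genes, and the lower one was HSPA4L at -0.36. With the length correction as well, 3 were higher (HSP90AA1, HSPB1 and HSPA8) and 1, HSPA4L, lower, beside 20.1%. The smallest p-values in the fit to all 4 libraries were those of HSPE1 (log2 fold change 0.38 ± 0.22), HSPD1 (0.18 ± 0.12) and HSPB1 (0.32 ± 0.24). HSPE1 and HSPD1, the mitochondrial chaperonins, became 0.13 and 0.12 after the correction.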

How the data were processed

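RNA-seq of 4 T24 libraries (2 control, 2 CBX7-overexpressing) was used. The authors deposited an estimated count that was not normalized, a TPM value scaled by gene length, and a gene length in bases for each gene and library. Most counts are whole, and the rest are fractions. The submitters' processing notes name cutadapt 1.9.1, HISAT2 2.0.1, HTSeq 0.6.1, DESeq2 and hg19 without saying what each was used for. How the fractional counts and the TPM values were made is not given in the sources used here. The deposited table also holds group mean TPM values and the authors' own fold change, log2 fold change, p-value, adjusted p-value and significance mark, which were not used. TPM values were used for levels only.

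Counts were rounded and passed through filterByExpr, which kept 14862 genes. TMM scaling and the default quasi-likelihood fit of edgeR 4.0.16 under R 4.3.3 followed, with no covariate beside the group, and p-values were adjusted by Benjamini-Hochberg across every gene tested. The SE was taken from the log2 fold change and the root of its F value. For the length correction, the lowess trend (span 0.4) of each library's log2 CPM on deposited gene length, over genes averaging 100 counts or more, entered as an offset. DESeq2 1.42.0 was an alternative, as were DESeq2's size factors, no filter, the replicate number as a block, and leaving out each library. The fits were also run on simulated counts, with the same dispersion for every gene and fold changes larger than those of the members. That setting differs from these data, so no conclusion is drawn from it. The precision is set by 2 libraries per group: permuting labels exactly for 1 gene gives a two-sided p of 0.333 at the lowest. Libraries of a group differed beyond counting error (chi-square per degree of freedom 6.43 in control and 59.5 in CBX7 cells), so none was a copy of another.

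The members and lists were chosen with earlier results of these data known, by name and role. Named genes are all members, CBX7, the cell type markers and the 3 smallest p-values in each further list. The other genes named from those lists were chosen after their values were seen. A pseudogene was to be named where its count reached 5% of its member's, and 0 did. The further lists for the chaperone and ATF4 pathways and the heat shock genes were not picked by how they moved.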

Additional observations from a re-analysis of the deposited data

How the results depend on the processing

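CBX7 kept its rise in every fit run. Of the 40 genes, 11 changed sign in a fit to all 4 libraries, none of them beyond 0.17 on the log2 scale. The log2 fold changes that turned were HSP90B1 -0.0071, SYVN1 -0.0025 with DESeq2's size factors, HSP90B1 -0.0071, SYVN1 -0.0025 with its Wald test, and HSP90B1 -0.023, DNAJB9 -0.030, PDIA6 -0.035, MANF -0.084, ATF6 0.068, ATF4 -0.069, DDIT3 -0.0051, CHAC1 -0.064, PSPH -0.011, PPP1R15A -0.010 with the length correction. With the replicate block the value that turned was HSP90B1 -0.0036, and with the block and the length correction together HSP90B1 -0.026, DNAJB9 -0.040, PDIA6 -0.035, MANF -0.084, ATF6 0.068, ATF4 -0.069, DDIT3 -0.0057, CHAC1 -0.050, PSPH -0.016, PPP1R15A -0.013.

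Counts of genes past an adjusted and an unadjusted p of 0.05 were 67 and 428 in the Wald test of DESeq2, 265 and 1368 when low genes were kept, 361 and 1511 under the replicate block, and 411 and 1925 with the block and the length correction. Members past an unadjusted p of 0.05 numbered 2 with no filter (SDF2L1 and SLC3A2), 2 with the length correction, 3 with the block, and 4 with both, and 0 passed adjustment in any of these fits. The deviations of same-numbered libraries from their group means correlated at 0.31 over 14862 genes. With 2 pairs and no statement that a number marks a shared culture or day, the numbers are not taken as pairs, and a call lost or gained under the block is not read as a change of effect. Under the block without the length correction, each gene's spread was also taken from the other genes.

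Leaving out 1 library at a time, with and without the length correction (the corrected fits were chosen after seeing the data), gave 2 to 5491 genes and 0 to 16 members past the adjusted threshold and 382 to 6647 genes and 0 to 19 members past the unadjusted one. The highest counts came without CBX7 library 2. The median log2 fold change ran from -0.024 to 0.081 in the chaperone arm, from -0.37 to 0.13 in the sensors and from -0.024 to 0.17 in the ATF4 arm. In these fits 27 members changed sign, with the ranges HSP90B1 -0.13 to 0.12, DNAJB9 -0.23 to 0.16, DNAJC3 -0.17 to 0.19, SDF2L1 -0.0034 to 0.72, PDIA3 -0.025 to 0.19, PDIA4 -0.11 to 0.0083, PDIA6 -0.050 to 0.081, CALR -0.067 to 0.27, CANX -0.36 to 0.051, CRELD2 -0.0057 to 0.65, MANF -0.13 to 0.39, SYVN1 -0.059 to 0.069, SEL1L -0.75 to 0.11, XBP1 -0.022 to 0.19, ATF6 -0.29 to 0.13, ERN1 -0.52 to 0.14, ATF4 -0.14 to 0.25, ATF3 -0.37 to 0.32, DDIT3 -0.12 to 0.40, CHAC1 -0.34 to 0.46, PSAT1 -0.058 to 0.17, PHGDH -0.15 to 0.22, PSPH -0.14 to 0.11, SLC7A1 -0.48 to 0.13, CEBPB -0.36 to 0.12, PPP1R15A -0.14 to 0.21, VLDLR -0.39 to 0.068. The cause of these changes was not tested. With 3 libraries, 1 degree of freedom is left for the spread, which then rests on the other genes. Low counts limit ATF3 and CHAC1, whose intervals were the widest of the ATF4 arm.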
